A study of Mus musculus with 36 samples.

Results

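The 9 signalling genes described here are the transcription factor genes Stat2, Stat3, Stat4, Stat5a and Stat6, and the feedback inhibitor genes Socs1, Socs2, Socs3 and Cish. They were taken by symbol from a table of 53299 mouse genes, which makes 9 of 53299, and all 9 passed the filter on low counts that left 12463 genes for testing. Messenger RNA was sequenced from conventional dendritic cells grown from mouse bone marrow with FLT3 ligand, as cDC1 (the subset known for cross-presentation to CD8+ T cells) and as cDC2 (the subset known for priming CD4+ T cells). Each subset was left untreated (labelled Nothing), given LPS (a bacterial Toll-like receptor ligand), given PGPC (an oxidised phospholipid), or given LPS and PGPC. The series title concerns inflammasomes in hyperactive dendritic cells and anti-tumour T cell immunity. Each group had 3 libraries, numbered 1 to 3 for cDC1 and 4 to 6 for cDC2, except cDC2 with PGPC, where 2 libraries were used. The 23 libraries form 8 groups. The labels give no strain, genotype, age, dose or time. They call the replicates biological without saying whether they came from separate animals or cultures, so the tests measure the spread between these libraries.

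Cytokines that use this pathway bind receptors that carry Janus kinases. The kinases phosphorylate STAT proteins, which pair, enter the nucleus and activate target genes. STAT target genes include the SOCS family and Cish, whose proteins bind the receptors or kinases and damp the signal, so a rise in SOCS transcripts is widely read as a trace of recent cytokine signalling. In dendritic cells LPS is known to induce type I interferon, interleukin-6, interleukin-10 and interleukin-12, each of which signals through a STAT.

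Short stretches around the start sites of 5 of these genes carry letters of the elements that STAT proteins are known to bind, and are shown because the same genes were compared below. The promoter sequences are RefSeq's for GRCm38.p6, 250 bases before to 50 after each start. Entries matched 8 of the 9 genes (10 start sites), and Socs2 was not among them. Both strands were searched for GAS, the interferon-gamma activated site (TTCNNNGAA), for a GAS with a 4-base gap (TTC, any 4 bases, GAA, the spacing STAT6 is known to favour), and for ISRE, the interferon-stimulated response element bound by STAT2 with IRF9 (GAAA, any 2 bases, GAAA). Each line is 30 bases, 5′ to 3′ on the gene's strand, with the matches in capitals.
Socs1, chr16:10785597-10785626, minus strand: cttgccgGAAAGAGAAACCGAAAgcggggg
Stat2, chr10:128270272-128270301, plus strand: ctggTTTCAGTTTCctTTCCCTAGAActca
Stat4, second start site, chr1:52008133-52008162, plus strand: aatgtcttcaGAAAGTGAAAtttagaacgg
Socs3, chr11:117969501-117969530, minus strand: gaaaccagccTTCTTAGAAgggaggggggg
Cish, chr9:107296654-107296683, plus strand: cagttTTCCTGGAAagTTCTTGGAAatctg
The Socs1 stretch lies upstream of the gene and holds 2 ISRE matches that share bases, between 83 and 68 bases before the start. The Stat2 stretch is also upstream of the gene, with an ISRE match on the opposite strand at 222 to 213 bases before the start and a GAS with a 4-base gap at 210 to 201 bases before it. The Stat4 match lies 97 to 88 bases before an internal start site, within the gene's transcribed span by GENCODE M21 and outside its exons. The Socs3 match lies 154 to 146 bases before the RefSeq start, also within the span of a GENCODE transcript and outside its exons. The 2 Cish matches lie at bases 1 to 9 and 12 to 20 from the RefSeq start, inside an exon (UTR) of the GENCODE model. Among all 32851 promoter entries of that length, 8.3% held a GAS, 6.95% a GAS with a 4-base gap and 3.44% an ISRE. These letters were not found in the windows of Stat3, Stat5a and Stat6. A match is a description of sequence and no binding was measured.

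The libraries held 243861 to 16600980 estimated counts and 9687 to 15608 genes with a count, the shallowest being replicate 6 of untreated cDC2. Counts from the ribosomal RNA locus made up 53.2 ± 16.5% of the total for untreated cDC1 (SD, n = 3) and 56.5 ± 6.25% for cDC2 with PGPC (n = 2), against group means of 21.9% to 32.5% in the other 6 groups. Rank correlations within a group ran from 0.824 to 0.961. The summed level of 10 cDC1 markers (Clec9a and Irf8 among them) was 1094 to 1813 CPM (counts scaled to a common library size with TMM factors) in untreated cDC1 and 161 to 201 in untreated cDC2. The 8 cDC2 markers summed to 580 to 805 CPM in untreated cDC1 and 1104 to 1593 in untreated cDC2, a sum made up largely of Sirpa (358 ± 142 and 1098 ± 228 CPM). Of the 10 cDC1 markers 8 had the higher mean in untreated cDC1, and the other 2, Xcr1 and Tlr3, did not. Of the 8 cDC2 markers only Sirpa and Itgam had the higher mean in untreated cDC2, and the other 6 (Irf4, Cd209a, Mgl2, Clec10a, Cd300a and Clec4a4) had it in untreated cDC1, against the labels. All 5 pan dendritic cell markers had the lower mean in untreated cDC2, Flt3 at 12.5 ± 4.36 CPM against 351.5 ± 107 in untreated cDC1. All 7 plasmacytoid dendritic cell markers also had the lower mean in untreated cDC2. Of 10 monocyte or macrophage markers 9 had the higher mean in untreated cDC2, all but Ccr2. Xcr1 had 4 counts in untreated cDC1 (0.177 ± 0.191 CPM), and Irf4 lay at 24.9 ± 10.7 CPM in untreated cDC1 and 2.61 ± 2.72 in untreated cDC2. Cd209a was at 0 in cDC2 with LPS, with PGPC and with both, and Clec9a was at 0 in cDC2 with LPS and with PGPC. T and NK cell markers summed to at most 0.751 CPM, with Nkg7 and Ncr1 at 0 in all 23 libraries, and 5 B cell markers to at most 31.3 CPM. Values in bulk RNA cannot tell fewer cells of a type from less RNA per cell.

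Levels below are TMM-scaled CPM and compare a gene with itself, since CPM is not corrected for gene length. Changes are log2 fold changes with their standard error (SE) from edgeR's quasi-likelihood test, with p-values adjusted over all 12463 genes and a threshold of 0.05. Where members at an unadjusted p under 0.05 are counted, the share of all genes at that threshold was not taken. Those counts therefore cannot be read as more or fewer than in other genes.

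**Figure D1:**
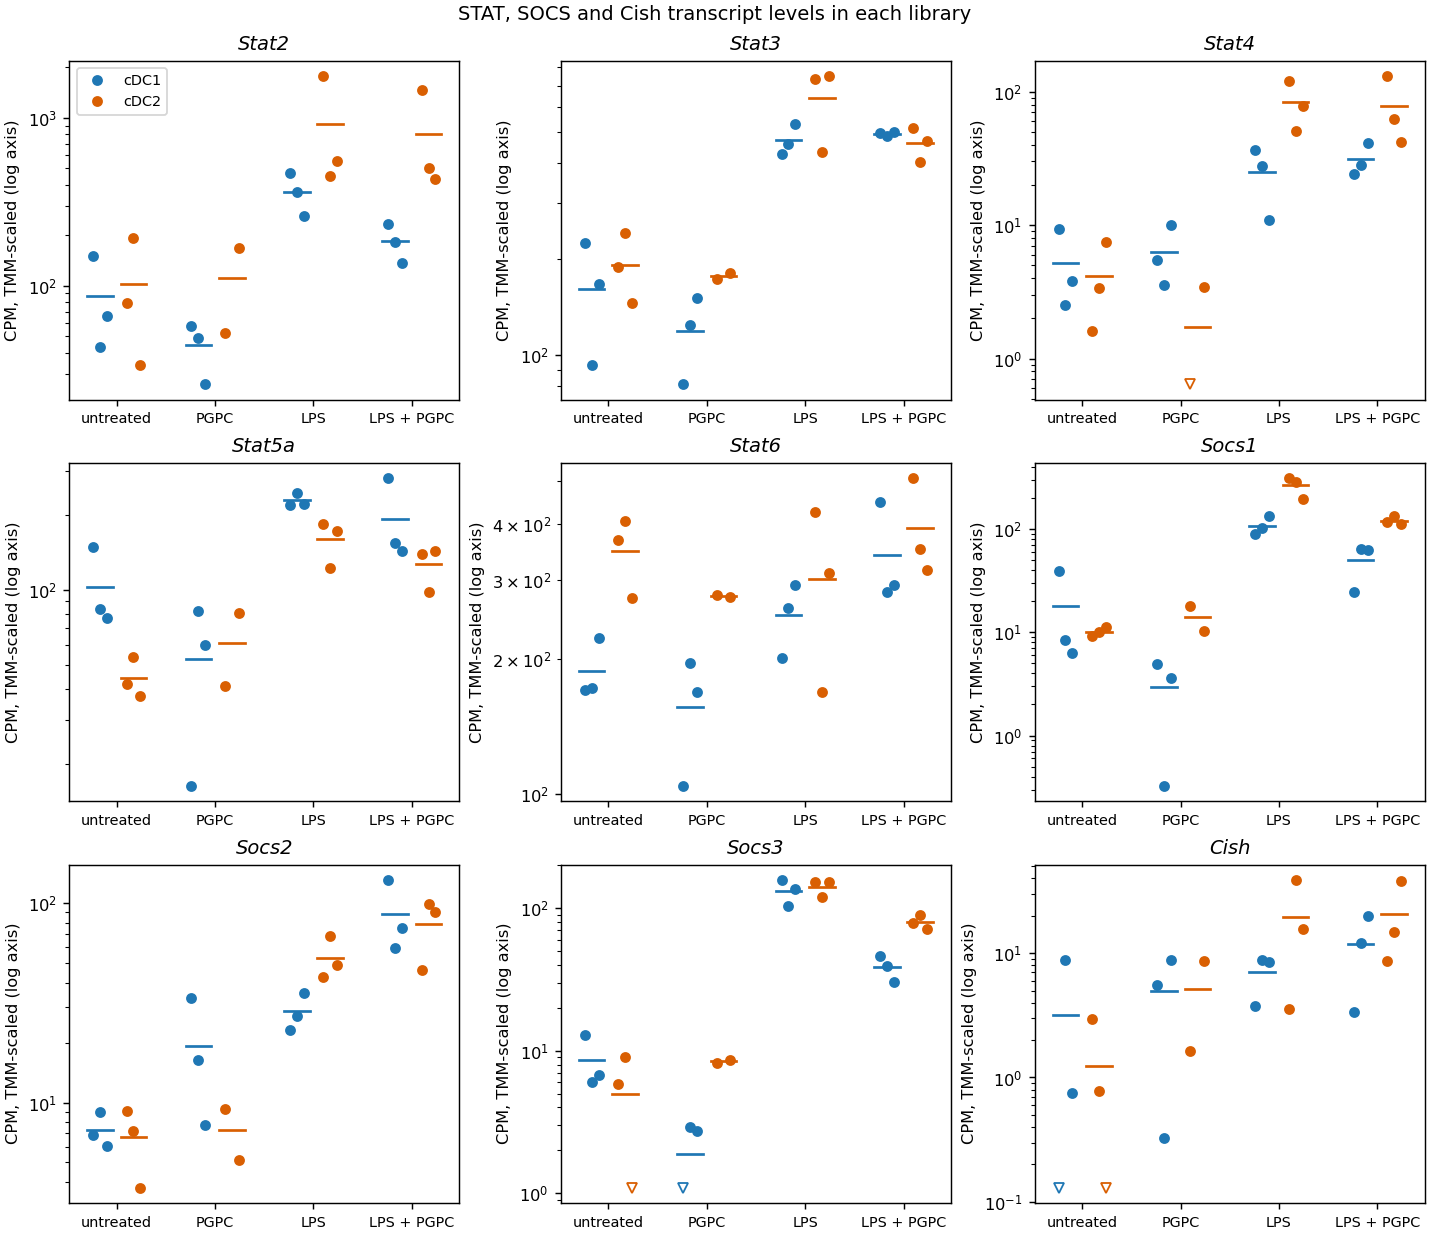
Level of each of the 9 genes (TMM-scaled CPM, log axis) in untreated, PGPC, LPS, and LPS + PGPC libraries, with 1 point per library, a bar at the group mean and an open triangle at the bottom for a library at 0. Stat2, Stat3, Stat4, Socs1, Socs2 and Socs3 lie higher in every LPS library than in every untreated library of the same subset, while the Stat6 points of LPS and untreated libraries overlap in both subsets.

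Most of these genes rose with LPS in both subsets. In cDC1, 6 of 9 rose with LPS and none fell: Stat2, Stat3, Stat4, Socs1, Socs2 and Socs3. In cDC2 the same 6 and Stat5a rose, 7 of 9, and none fell. The background was 17.9% of all tested genes called in either direction in cDC1 (8.58% higher, 9.36% lower) and 8.52% in cDC2 (5.82% higher, 2.7% lower). The median log2 change of the 9 genes was 1.96 in cDC1, where that of all tested genes was −0.12, and 3.12 in cDC2, where that of all tested genes was 0.03. LPS and untreated libraries did not overlap for 7 of the 9 in cDC1 (39.1% of all genes) and for 8 of the 9 in cDC2 (27% of all genes). When the 13 libraries left out (12 with alum and 1 very shallow) were put into the same fit, 0 of the 9 in cDC1 and 2 in cDC2 (Stat4 and Socs1) passed, with 7 and 8 at an unadjusted p under 0.05 in the fit without them. The log2 changes themselves moved little. With the 13 included, those of cDC1 were 2.03 (Stat2), 1.52 (Stat3), 2.32 (Stat4), 2.57 (Socs1), 1.94 (Socs2) and 3.94 (Socs3). Without the 13 they were 2.09, 1.55, 2.46, 2.71, 1.96 and 4.04. In cDC2 the genes that lost their call had 3.19 (Stat2), 1.75 (Stat3), 1.86 (Stat5a), 2.94 (Socs2) and 4.635 (Socs3), against 3.12, 1.72, 1.81, 2.81 and 4.43.

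Stat2 encodes the STAT that joins IRF9 to carry type I and type III interferon signals. In untreated cDC1 the 3 libraries held 151, 43.2 and 65.8 CPM, and with LPS 469, 363 and 259. In untreated cDC2 they held 79.0, 194 and 33.7 CPM, and with LPS 1766, 449 and 558. Every LPS library stood above every untreated library of its subset, and cDC2 replicate 4 with LPS held over 3 times the level of the other LPS libraries of cDC2. Stat2 rose by a log2 change of 2.09 ± 0.64 in cDC1 (4.24-fold, adjusted p = 0.0258) and 3.12 ± 0.67 in cDC2 (8.70-fold, adjusted p = 0.00284). The cDC1 call was lost in 4 of the 23 fits that left out 1 library (adjusted p up to 0.117). Without untreated replicate 1 the cDC1 change was 2.74. The cDC2 change was 2.23 without LPS replicate 4 and 3.95 without untreated replicate 5, and passed in all 23.

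Stat3 carries interleukin-6 and interleukin-10 signals. Its 3 libraries held 225, 92.9 and 167 CPM in untreated cDC1 and 428, 459 and 531 with LPS. In untreated cDC2 they held 189, 242 and 146 CPM, and with LPS 734, 433 and 748. The groups did not overlap in either subset. Stat3 rose by a log2 change of 1.55 ± 0.35 in cDC1 (2.93-fold, adjusted p = 0.0031) and 1.72 ± 0.36 in cDC2 (3.29-fold, adjusted p = 0.00209). Both calls held in all 23 fits that left out 1 library. Stat3 and Stat5a lie tail to tail on chromosome 11 (100885098 to 100939540 on the minus strand and 100859351 to 100885169 on the plus strand, GRCm38) and overlap at their ends, where reads counted without strand cannot be told apart.

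Stat4, the STAT of interleukin-12 and type I interferon signalling in T and NK cells, was low without LPS. Untreated cDC1 held 9.41, 2.53 and 3.78 CPM and cDC1 with LPS 36.5, 27.8 and 10.9. Untreated cDC2 held 1.61, 3.36 and 7.48 CPM and cDC2 with LPS 119.8, 51.2 and 78.3. The lowest LPS library of cDC1 was close to the highest untreated one, while in cDC2 the lowest LPS library lay far above. Stat4 rose by a log2 change of 2.46 ± 0.66 in cDC1 (5.50-fold, adjusted p = 0.0104) and 4.82 ± 0.77 in cDC2 (28.3-fold, adjusted p = 0.000156). The cDC1 call was lost in 3 of the 23 fits without 1 library, with adjusted p up to 0.0738. T and NK cell markers summed to at most 0.625 CPM in cDC1 with LPS and to 0 in cDC2 with LPS.

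Stat5a, a STAT of GM-CSF and interleukin-2 family signalling, held 148, 83.9 and 77.2 CPM in untreated cDC1 and 219, 246 and 221 with LPS. In untreated cDC2 it held 42.1, 54.0 and 37.4 CPM, and with LPS 183, 123 and 172. The groups did not overlap in either subset. The log2 change was 1.16 ± 0.45 in cDC1, which missed the threshold (adjusted p = 0.0725), and 1.81 ± 0.47 in cDC2, a rise of 3.52-fold (adjusted p = 0.0124). In cDC1 the call passed in 2 of the 23 fits without 1 library (untreated replicate 1, PGPC replicate 1). In cDC2 it was lost without untreated replicate 4 (adjusted p = 0.0866) and without untreated replicate 6 (adjusted p = 0.0566). All used values of Stat5a and 78.3% of those of Stat4 were not whole numbers, as estimated counts are where reads match more than 1 place, so the levels of both are uncertain, and the source of those reads was not tested.

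Stat6 carries interleukin-4 and interleukin-13 signals. It held 170.2 to 223 CPM in untreated cDC1, 201 to 292 with LPS, 273 to 406 in untreated cDC2 and 169 to 426 with LPS, so the groups overlapped in both subsets. The log2 changes were 0.41 ± 0.36 in cDC1 (adjusted p = 0.46) and −0.22 ± 0.36 in cDC2 (adjusted p = 0.831). Of the 5 STAT genes described, Stat6 was the one that LPS alone did not move past the threshold in either subset.

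Socs1 encodes an inhibitor that binds Janus kinases and limits interferon signalling, and its upstream stretch above holds the ISRE matches. In untreated cDC1 it held 39.4, 8.48 and 6.36 CPM, and with LPS 89.9, 101.6 and 133. Untreated cDC2 held 9.11, 10.1 and 11.2 CPM and cDC2 with LPS 311, 286 and 197. Untreated cDC1 replicate 1 stood apart from its group, and no library overlapped between the groups of either subset. Socs1 rose by a log2 change of 2.71 ± 0.60 in cDC1 (6.54-fold, adjusted p = 0.00242) and by 4.75 ± 0.68 in cDC2 (26.9-fold, adjusted p = 4.49e-05). Without untreated replicate 1 the cDC1 change was 3.86. Both calls held in all 23 fits without 1 library.

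Socs3 encodes the inhibitor that binds the shared receptor chain of interleukin-6 signalling. It held 12.8, 6.07 and 6.81 CPM in untreated cDC1 and 158, 103 and 137 with LPS. Untreated cDC2 held 5.89, 9.04 and 0 CPM, where the library at 0 was the shallowest and a count of 0 there allows up to 11.2 CPM, and cDC2 with LPS held 153, 119 and 154. Every LPS library lay at least 100 CPM, while no untreated library reached 13. Socs3 rose by a log2 change of 4.04 ± 0.74 in cDC1 (16.5-fold, adjusted p = 0.00044) and 4.43 ± 0.78 in cDC2 (21.6-fold, adjusted p = 0.000459). It had the largest log2 change of the 9 genes in cDC1, and Stat4 had it in cDC2.

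Socs2, which limits growth hormone receptor signalling, held 6.84, 8.98 and 6.05 CPM in untreated cDC1 and 23.1, 27.2 and 35.6 with LPS. In untreated cDC2 it held 9.11, 7.23 and 3.74 CPM, and with LPS 42.5, 68.4 and 48.9. The groups were apart in both subsets. Socs2 rose by 1.96 ± 0.49 in cDC1 (3.88-fold, adjusted p = 0.00661) and by 2.81 ± 0.53 in cDC2 (7.03-fold, adjusted p = 0.000813), on the log2 scale, in all 23 fits without 1 library.

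Cish, an inhibitor best known as a target of STAT5, was sparse. Untreated cDC1 held 0, 8.73 and 0.757 CPM (the 0 allows up to 2.57) and cDC1 with LPS 3.75, 8.86 and 8.54. Untreated cDC2 held 2.95, 0.775 and 0 CPM (the 0 allows up to 11.2) and cDC2 with LPS 3.58, 38.8 and 15.7. The cDC1 groups overlapped and the cDC2 groups lay close together. The log2 changes were 0.93 ± 1.03 in cDC1 (adjusted p = 0.577) and 3.50 ± 1.23 in cDC2 (adjusted p = 0.084), the second resting on 14 untreated counts. Single libraries moved both values: the cDC1 change was 3.54 without untreated replicate 2 (adjusted p = 0.0892), and the cDC2 change was 2.45 without LPS replicate 5 and 4.76 without untreated replicate 4. DESeq2 called the cDC2 change (adjusted p = 0.0224), as did the fit with no filter on low counts (adjusted p = 0.00198).

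Markers of other cells and the ribosomal share differed with LPS as well. The 10 monocyte or macrophage markers (none at 0 in any group) summed to 1545 to 4251 CPM in untreated cDC1 and 911 to 2033 with LPS, and to 5721 to 7210 in untreated cDC2 and 2852 to 5640 with LPS. Lyz2 made up most of the untreated sums (2377 and 507 CPM in cDC1, 3640 and 1031 in cDC2), and 8 of the 10 had a lower mean with LPS in cDC1 and 7 in cDC2. The other means were higher with LPS: Cd14 and Adgre1 in both subsets (29.1 and 217 CPM, and 41.5 and 499.7 CPM, in cDC1) and Fcgr1 in cDC2. The 7 plasmacytoid dendritic cell markers summed to 22.5 to 71.5 CPM in untreated cDC2 and 247 to 535 with LPS. Bst2 made up most of the LPS sum (29.4 ± 24.4 CPM untreated and 329.5 ± 158 with LPS). Spib went from 8.62 ± 4.25 to 42.9 ± 17.7 CPM, and Tcf4 lay at 9.73 ± 4.58 and 12.3 ± 4.73 CPM. Ccr9 also had a higher mean and 2 markers a lower one, with Siglech and Ly6d at 0 in cDC2 with LPS. In cDC1 the plasmacytoid list summed to 236 to 431 CPM untreated and 186 to 332 with LPS. These overlapping sums hide opposite changes, since 6 of the 7 markers had a lower mean with LPS. Siglech went from 74.2 ± 58.6 to 4.74 ± 2.89 CPM, Atp1b1 from 43.01 ± 18.9 to 2.199 ± 1.41 and Ly6d from 20.7 ± 13.1 to 3.79 ± 1.21. Bst2, Tcf4 and Ccr9 fell less. Only Spib had a higher mean, from 76.2 ± 11.6 to 138.6 ± 73.4 CPM. The 7 granulocyte markers, Elane at 0 throughout, summed to 39.4 to 180 CPM in untreated cDC1 and at most 6.96 with LPS. The ribosomal share averaged 53.2% in untreated cDC1 and 21.9% with LPS. Their part in the LPS results was not tested. In a fit without the ribosomal rows, chosen after seeing the data, the same numbers of members passed (6 in cDC1 and 7 in cDC2). That fit only removes those rows, so it cannot show whether libraries with a high ribosomal share differ in other ways.

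**Figure D2:**
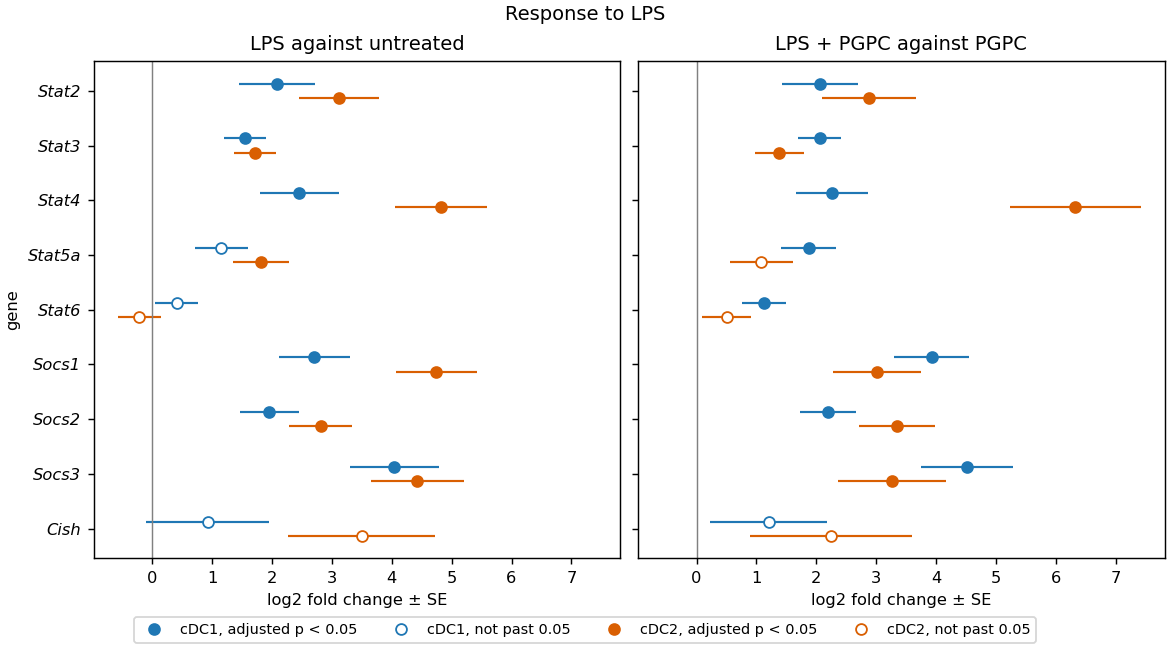
Log2 fold change ± SE of the 9 genes with LPS against untreated (left) and with LPS + PGPC against PGPC (right), in cDC1 and cDC2, filled where the adjusted p is under 0.05. Socs1, Socs2, Socs3, Stat2, Stat3 and Stat4 are filled in all 4 comparisons, and Cish is open in all 4.

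The other genes of the pathway were counted in 10 lists of 100 genes, 86 of them tested. With LPS, 31 rose and 9 fell in cDC1, and 31 rose and 2 fell in cDC2. Of all tested genes 8.58% rose and 9.36% fell in cDC1, and 5.82% rose and 2.7% fell in cDC2. Of the 4 Janus kinases, Jak2, Jak3 and Tyk2 rose in cDC1, and Jak2 and Tyk2 in cDC2. Jak2 went from 9.501 ± 6.08 to 141 ± 24.5 CPM in cDC1 (log2 change 3.80 ± 0.51, adjusted p = 1.27e-05) and from 7.27 ± 3.84 to 92.8 ± 47.3 CPM in cDC2 (3.49 ± 0.53, adjusted p = 9.59e-05). Tyk2, a kinase of interferon and interleukin-12 receptors, rose by 2.61 ± 0.58 in cDC1 (adjusted p = 0.00264) and 1.83 ± 0.57 in cDC2 (adjusted p = 0.0438), where the change was 1.02 without LPS replicate 4 (adjusted p = 0.334). Jak1 held 101.8 ± 4.44 CPM in untreated cDC1 and 167 ± 5.90 with LPS, with an adjusted p of 0.221 there and 0.727 in cDC2.

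Among cytokine genes that use this pathway, 4 of 8 tested rose with LPS in each subset and none fell. Il6 had no count in untreated cDC1 and 40.0 ± 11.4 CPM with LPS, and went from 1 count in untreated cDC2 to 52.4 ± 23.4 CPM. Il12b, a subunit of interleukin-12, had 3 counts in untreated cDC1 and 70.8 ± 31.5 CPM with LPS. Ebi3, a subunit of interleukin-27, rose in cDC2 from 12.8 ± 4.57 to 101 ± 45.7 CPM (log2 change 2.85 ± 0.54, adjusted p = 0.000908).

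Of 4 interferon receptor genes tested, 1 fell in cDC1: Ifnar2, a chain of the type I interferon receptor, from 396 ± 83.7 to 107 ± 15.7 CPM (log2 change −1.89 ± 0.35, adjusted p = 0.000418). In cDC2, 1 of the 4 rose, Ifngr2 of the interferon-gamma receptor, by 1.09 ± 0.33 (adjusted p = 0.0372), a call lost without any 1 of 8 single libraries (3 of cDC2 untreated, 2 of cDC2 with LPS and 3 of cDC1) and in the fit with no filter (adjusted p = 0.26). The Ifnar2 change differed between subsets, by a log2 value of 2.41 ± 0.49 (cDC2 minus cDC1, adjusted p = 0.0121). Of 21 other receptor genes 2 rose and 2 fell in cDC1, and 3 rose in cDC2. The cDC1 count is near the 17.9% of all tested genes called there. Lifr, the leukaemia inhibitory factor receptor, fell in cDC1 from 30.7 ± 0.116 to 3.57 ± 2.87 CPM (−2.99 ± 0.61, adjusted p = 0.00119), and Il15ra rose in cDC2 from 4.55 ± 2.13 to 74.1 ± 39.8 CPM (3.93 ± 0.70, adjusted p = 0.000427).

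Of 14 other SOCS genes and inhibitors 2 rose and 3 fell in cDC1, and 3 rose in cDC2. Usp18, which binds the type I interferon receptor and limits its signal, rose in both, from 3.90 ± 0.784 to 185 ± 42.2 CPM in cDC1 (5.52 ± 0.90, adjusted p = 0.000129) and from 10.4 ± 11.02 to 362 ± 66.6 CPM in cDC2 (4.79 ± 0.87, adjusted p = 0.000608). Socs5 fell in cDC1 from 26.3 ± 9.97 to 5.15 ± 2.18 CPM (−2.37 ± 0.53, adjusted p = 0.0028), against the rise of Socs1, Socs2 and Socs3 there.

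Known target genes were counted by the STAT they are linked to. Of 13 interferon targets linked to STAT2, 12 rose in cDC1 and 11 in cDC2, with median log2 changes of 4.72 and 4.65. Their summed level was 94.1 to 150.1 CPM in untreated cDC1 and 2070 to 3116 with LPS. In cDC2 it was 149.7 to 1020 CPM untreated and 10780 to 11870 with LPS, and the untreated library at 1020, replicate 5, was also the one with the highest untreated Stat2 level of cDC2. Irf7, a transcription factor induced by interferon, rose by 5.49 ± 0.68 in cDC1 (adjusted p = 5.67e-06) and 5.14 ± 0.67 in cDC2 (adjusted p = 1.98e-05). Of 12 targets linked to STAT3, 6 rose and 1 fell in cDC1, and 6 rose and 2 fell in cDC2. Etv3, a repressor induced by interleukin-10, rose in cDC1 from 45.6 ± 2.49 to 789 ± 172 CPM (4.11 ± 0.45, adjusted p = 1.67e-06), and Il1rn, the interleukin-1 receptor antagonist, rose in cDC2 from 6.41 ± 2.53 to 847 ± 327 CPM (6.87 ± 1.06, adjusted p = 0.000111). Of 9 targets linked to STAT5, 4 rose and 1 fell in cDC1 and 3 rose and 1 fell in cDC2, with Ccnd2, a cyclin, rising in both (2.90 ± 0.41, adjusted p = 2.46e-05, and 3.81 ± 0.45, adjusted p = 8.21e-06). Of 7 tested targets linked to STAT6, 1 rose in each subset and 1 fell in cDC1. The chemokine gene Ccl22 rose by 8.12 ± 0.63 in cDC1 (adjusted p = 2.16e-08) and by 5.13 ± 0.55 in cDC2 (adjusted p = 2.45e-06), while Chil3 fell in cDC1 by 4.64 ± 1.52 (adjusted p = 0.04), a call not made by DESeq2 (adjusted p = 0.138). Neither of 2 tested genes linked to STAT4 passed. Many of these targets also answer to other factors that LPS activates, and some genes stand in more than 1 list.

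**Figure D3:**
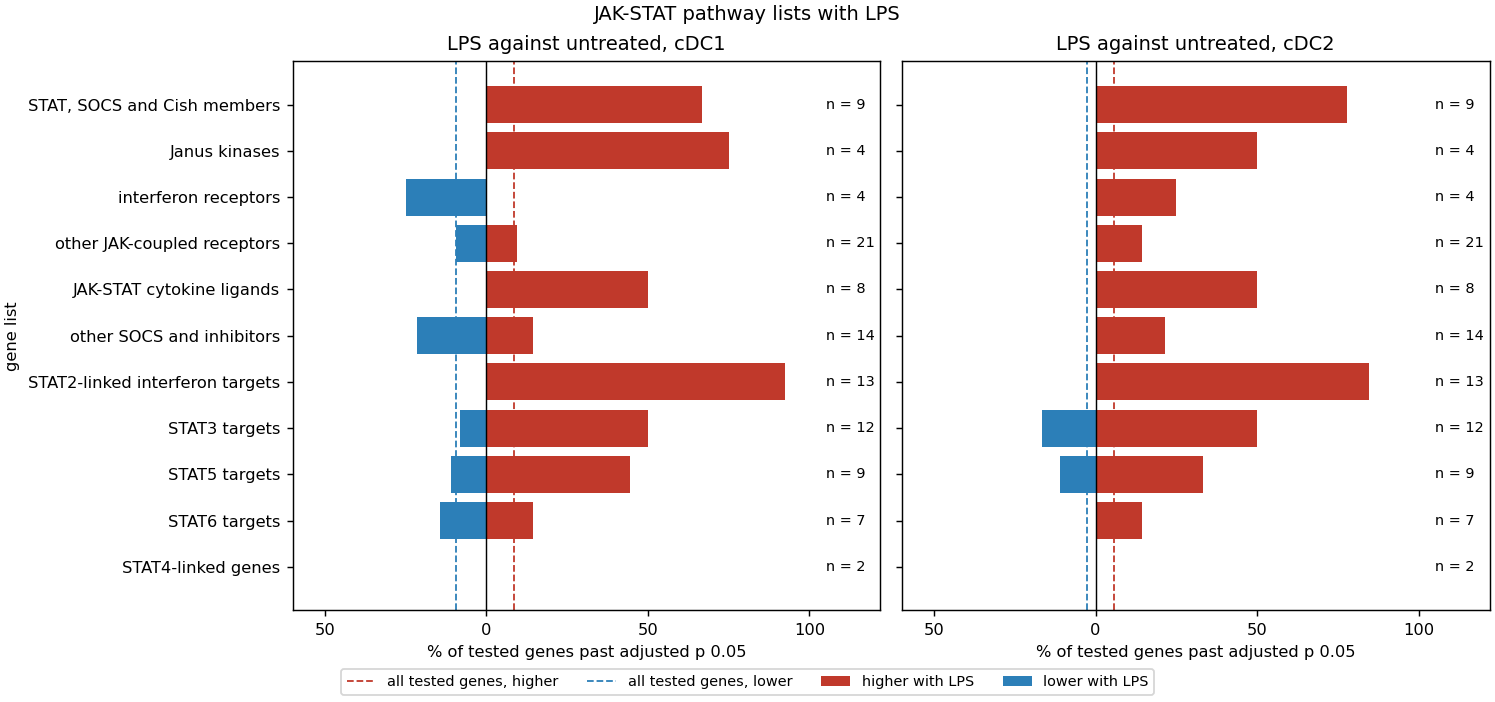
Share of the tested genes of each list that rose (red, right) or fell (blue, left) with LPS in cDC1 and cDC2, with dashed lines at the shares of all 12463 tested genes. In cDC1, 12 of 13 STAT2-linked targets and 6 of the 9 STAT and SOCS genes rose against 8.58% of all genes, and of the 7 STAT6 targets 1 rose and 1 fell.

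The LPS comparison was made a further time in PGPC-treated cells, between groups of libraries that the comparison above did not set against each other. Its p-values are not separate from those above, since 1 fit estimated the spread of each gene over all 8 groups. Markers of other cells differed here too. In cDC1 granulocyte markers summed to 214 to 1009 CPM with PGPC and 1.16 to 63.7 with both agents. Mast cell or basophil markers there summed to 50.5 to 77.9 and 0.91 to 2.90 CPM. Monocyte or macrophage markers summed to 4086 to 5529 and 654 to 943 CPM in cDC1, and 4747 to 5910 and 2762 to 5671 in cDC2. Their part was not tested. In cDC1, 8 of the 9 genes rose when LPS was added to PGPC and none fell, against 16.4% of all genes called (9.79% higher, 6.6% lower). In cDC2, 6 of the 9 rose and none fell, against 6.64% of all genes (4.43% higher, 2.21% lower). The median log2 change was 2.06 in cDC1 (all genes −0.07) and 2.88 in cDC2 (all genes 0.12). The groups did not overlap for 8 of 9 in cDC1 (31.4% of all genes) and for 9 of 9 in cDC2 (41.1%).

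The largest values in cDC1 were those of Socs3 and Socs1. Socs3 held 0, 2.93 and 2.74 CPM with PGPC (the 0 allows up to 0.119) and 46.4, 39.3 and 30.3 with LPS and PGPC, a rise of 4.52 ± 0.77 on the log2 scale (adjusted p = 0.000249). Socs1 held 4.98, 0.326 and 3.64 CPM with PGPC and 24.5, 63.8 and 63.1 with both agents, a rise of 3.92 ± 0.62 (adjusted p = 9.36e-05). Both rises held in all 23 fits without 1 library, the Socs3 change being 3.76 without PGPC replicate 1 and 5.53 without PGPC replicate 3. Socs2 went from 33.4, 16.3 and 7.72 CPM to 131, 59.7 and 74.8 (2.201 ± 0.47, adjusted p = 0.00199), with a change of 2.89 without PGPC replicate 1.

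The STAT genes of cDC1 all passed here. Stat2 went from 57.6, 48.9 and 26.0 CPM to 235, 182 and 136 (2.06 ± 0.64, adjusted p = 0.0285, lost in 4 of 23 fits without 1 library). Stat3 went from 81.1, 124 and 151 CPM to 498, 487 and 501 (2.06 ± 0.36, adjusted p = 0.000276). The 3 Stat3 values with both agents lay within 1.03-fold of each other. Stat4 rose by 2.26 ± 0.61 (adjusted p = 0.0114) and Stat5a by 1.87 ± 0.45 (adjusted p = 0.00584). Stat6 went from 104, 196 and 169 CPM to 449, 283 and 293 and passed here, with 1.13 ± 0.36 (adjusted p = 0.0335), a call lost in 4 of 23 fits without 1 library (adjusted p up to 0.135) and with no filter on low counts (adjusted p = 0.0702). Cish did not pass (1.21 ± 0.98, adjusted p = 0.439).

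In cDC2 the comparison rests on 2 PGPC libraries. The ribosomal share averaged 56.5% in them and 27.8% in cDC2 with LPS and PGPC, and its part was not tested. Stat4 held 0 and 3.44 CPM with PGPC, 2 counts in all, and 130, 62.3 and 41.7 CPM with LPS and PGPC. The log2 change was 6.32 (adjusted p = 0.000797), with 4.52 without PGPC replicate 4 and 11.89 without PGPC replicate 5. Counts summed over each group and scaled by its summed library size gave a ratio of 105.5, with a 95% counting interval of 29.2 to 872. Replicate 4 with both agents gave 875 of the 1262 counts of its group. The interval covers counting error only. Socs2 went from 9.32 and 5.17 CPM to 46.2, 99.3 and 90.5 (3.34 ± 0.63, adjusted p = 0.00177). Socs1 went from 18.1 and 10.3 CPM to 117, 133 and 111 (3.02 ± 0.73, adjusted p = 0.0116), and Socs3 from 8.22 and 8.61 CPM to 78.9, 90.4 and 72.0 (3.26 ± 0.90, adjusted p = 0.0276). Stat2 rose from 52.6 and 169 CPM to 1471, 501 and 430 (2.88 ± 0.78, adjusted p = 0.0255) and Stat3 from 173 and 181 CPM to 515, 402 and 468 (1.38 ± 0.41, adjusted p = 0.0395). The Stat3 call was lost in 10 of 23 fits without 1 library (adjusted p up to 0.263), with RLE factors (0.0566) and with no filter on low counts (0.0904). The groups of all 6 were apart. Stat5a (1.08 ± 0.52, adjusted p = 0.242), Stat6 (0.50 ± 0.41, adjusted p = 0.541) and Cish (2.24 ± 1.35, adjusted p = 0.375) did not pass. Without PGPC replicate 4 the count of 6 fell to 1, Socs2, and without PGPC replicate 5 to 2, Stat4 and Socs2, where the remaining PGPC library was assumed to vary like the other groups. The Stat2 change was 2.10 without replicate 4 of cDC2 with LPS and PGPC, 2.27 without PGPC replicate 4 and 3.95 without PGPC replicate 5.

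PGPC without LPS moved 1 of the 9 genes past the threshold. In cDC1, 1 of 9 fell, Socs1, and none rose, against 2.08% of all genes called (0.578% higher, 1.5% lower). In the same comparison 4 of the 9 had an unadjusted p under 0.05, and DESeq2 called 2, with 642 genes called in all. In cDC2 none of the 9 passed, where 0.016% of all genes did, and none had an unadjusted p under 0.05. There DESeq2 called none of the 9, with 14 genes called in all. The groups did not overlap for 2 of 9 in cDC1 (18.1% of all genes) and for 0 of 9 in cDC2 (29.2%). The median log2 change was −0.44 in cDC1 (all genes 0) and 0.03 in cDC2 (all genes −0.05). The ribosomal share averaged 27.65% with PGPC and 53.2% untreated in cDC1, and 56.5% and 32.5% in cDC2. Its part in these results was not tested.

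The 2 genes apart in cDC1 were Socs1 and Socs3. Socs1, at 39.4, 8.48 and 6.36 CPM untreated, held 4.98, 0.326 and 3.64 CPM with PGPC, a fall of 2.31 ± 0.61 on the log2 scale (adjusted p = 0.0429). That call rests on untreated replicate 1: without it the change was −1.16 (adjusted p = 0.371), and it was lost in 12 of 23 fits without 1 library. Untreated replicate 1 also had the highest ribosomal share of the 23 used libraries, at 71.9%. Socs3 held 0 to 2.93 CPM with PGPC against 6.07 to 12.8 untreated (−2.26 ± 0.76, adjusted p = 0.119), which DESeq2 called (adjusted p = 0.0363). Socs2 lay the other way, with 33.4, 16.3 and 7.72 CPM against 6.05 to 8.98 untreated (1.38 ± 0.48, adjusted p = 0.134), and its change was 0.68 without PGPC replicate 1. Stat2, Stat3, Stat5a and Stat6 had log2 changes between −0.96 and −0.27, and Stat4 and Cish 0.51 and 0.50, with overlapping groups and adjusted p from 0.275 to 0.875.

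Of the 86 tested pathway genes 3 rose and 4 fell with PGPC in cDC1, and 0 passed in cDC2, against 2.08% and 0.016% of all genes called. Among inhibitors Sh2b3, an adaptor that restrains cytokine receptors, fell from 382 ± 256 to 55.7 ± 36.2 CPM (−2.76 ± 0.49, adjusted p = 0.0031). Bcl3, a target linked to STAT3, fell from 27.3 ± 11.9 to 2.12 ± 2.97 CPM (−4.16 ± 0.73, adjusted p = 0.00295). Ccl22 rose from 5.77 ± 4.86 to 54.0 ± 30.2 CPM (3.15 ± 0.52, adjusted p = 0.00206). The summed STAT2-linked targets held 90.3 to 147 CPM with PGPC against 94.1 to 150.1 untreated. Markers of other cells stood higher in cDC1 with PGPC: 7 granulocyte markers summed to 214 to 1009 CPM against 39.4 to 180 untreated (Elane at 0 in both), 6 mast cell or basophil markers to 50.5 to 77.9 against 1.27 to 2.88 (Mcpt8, Fcer1a, Ms4a2 and Prss34 at 0 untreated), and 10 monocyte or macrophage markers to 4086 to 5529 against 1545 to 4251. Their part in these results was not tested.

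PGPC added to LPS gave no call among the 9 in either subset by edgeR's test, against 1.93% of all genes called in cDC1 (1.39% higher, 0.546% lower) and 0.385% in cDC2 (0.281% higher, 0.104% lower). At an unadjusted p under 0.05 there were 2 of 9 in cDC1 and 1 of 9 in cDC2, a threshold at which all genes were not counted. DESeq2 called 1 in cDC1, Socs2, and none in cDC2, with 722 and 190 genes called in all. The median log2 change was 0.07 in cDC1, the same to 2 decimals as that of all genes, and −0.21 in cDC2 (all genes 0.01). These comparisons share their LPS and combined libraries with the ones above.

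The SOCS genes of cDC1 lay apart, Socs2 higher and Socs3 and Socs1 lower with both agents, without passing. Socs2, at 23.1, 27.2 and 35.6 CPM with LPS, held 131, 59.7 and 74.8 with both agents (1.63 ± 0.46, adjusted p = 0.0647). DESeq2 gave an adjusted p of 0.0196 and the fit with no filter 0.0336. Socs3, at 158, 103 and 137 CPM with LPS, held 46.4, 39.3 and 30.3 with both (−1.78 ± 0.65, adjusted p = 0.16), with an adjusted p of 0.0217 with no filter. Socs1, at 89.9 to 133 CPM with LPS, held 24.5 to 63.8 with both (−1.10 ± 0.55, adjusted p = 0.317), and Stat2, at 259 to 469 CPM, held 136 to 235 (−0.98 ± 0.62, adjusted p = 0.441). These 4 were the members whose groups did not overlap in cDC1 (26.4% of all genes). In cDC2 the groups of 2 members were apart (13.9% of all genes). Socs1 held 311, 286 and 197 CPM with LPS and 117, 133 and 111 with both (−1.14 ± 0.55, adjusted p = 0.619). Socs3 held 153, 119 and 154 CPM with LPS and 78.9, 90.4 and 72.0 with both (−0.82 ± 0.64, adjusted p = 0.883). Stat3, Stat4, Stat5a, Stat6 and Cish overlapped in both subsets.

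Of the 86 pathway genes, 2 fell in cDC1 and none passed in cDC2 when PGPC was added to LPS. The cDC1 count is near the 1.93% of all genes called there, and 0.385% were called in cDC2. Ebi3 fell from 151 ± 97.8 to 21.5 ± 12.8 CPM (−2.81 ± 0.51, adjusted p = 0.00412), with −2.13 and an adjusted p of 0.0501 without LPS replicate 1. Bcl2l1, a survival gene linked to STAT5, fell from 239.5 ± 143 to 61.4 ± 6.92 CPM (−1.97 ± 0.41, adjusted p = 0.0105), with −1.36 and an adjusted p of 0.118 without the same library. The STAT2-linked targets summed to 1707 to 2795 CPM with both agents against 2070 to 3116 with LPS in cDC1, and to 9124 to 17880 against 10780 to 11870 in cDC2. No member's response to added PGPC was shown to differ between subsets (0 of 9, against 0.00802% of all genes, none with an unadjusted p under 0.05, and none by DESeq2). The differences of Socs2 and Socs3 were −1.07 and 0.96 on the log2 scale (cDC2 minus cDC1, adjusted p = 0.698 and 0.83).

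**Figure D4:**
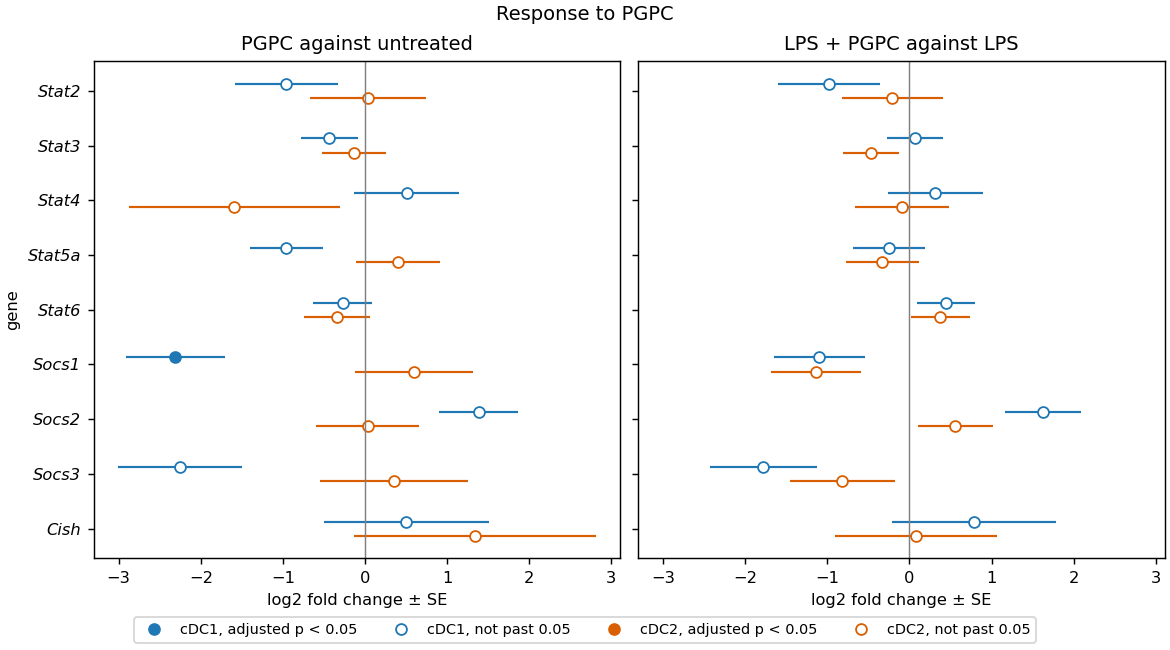
Log2 fold change ± SE of the 9 genes with PGPC against untreated (left) and with LPS + PGPC against LPS (right), in cDC1 and cDC2, filled where the adjusted p is under 0.05. The single filled point is Socs1 in cDC1 with PGPC, at −2.31, and the Socs2 and Socs3 points of cDC1 lie on opposite sides of 0 in both panels.

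The subsets were then compared under the same treatment. Untreated cDC2 and cDC1 gave no call among the 9, against 10.2% of all genes called (4.01% higher, 6.14% lower), with 2 at an unadjusted p under 0.05. DESeq2 called 1 of the 9, Stat6, and 1752 genes in all. With LPS none passed either, against 7.8% of all genes (5.59% higher, 2.21% lower), with 3 at an unadjusted p under 0.05. DESeq2 called 1 of the 9 there, Stat4, and 1420 genes in all. With LPS and PGPC 1 of 9 was higher in cDC2, Stat2, against 7.14% of all genes (4.6% higher, 2.54% lower). The subsets did not overlap for 2, 4 and 5 members in these comparisons, where 34.7%, 26.9% and 27% of all genes did not.

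In untreated cells the 2 apart were Stat5a and Stat6. Stat5a held 77.2 to 148 CPM in cDC1 and 37.4 to 54.0 in cDC2 (−1.18 ± 0.46, adjusted p = 0.106). Stat6 held 170.2 to 223 CPM in cDC1 and 273 to 406 in cDC2 (0.89 ± 0.36, adjusted p = 0.12), and DESeq2 gave 0.98 (adjusted p = 0.0257). With LPS, Stat4 lay at 10.9 to 36.5 CPM in cDC1 and 51.2 to 119.8 in cDC2 (1.72 ± 0.60, adjusted p = 0.0769, and 0.0304 by DESeq2). Socs1 lay at 89.9 to 133 CPM in cDC1 and 197 to 311 in cDC2 (1.29 ± 0.55, adjusted p = 0.168). Stat5a and Socs2 were also apart with LPS, in opposite directions (−0.52 ± 0.44 and 0.90 ± 0.46). With LPS and PGPC, Stat2 lay at 136 to 235 CPM in cDC1 and at 430 to 1471 in cDC2 (2.12 ± 0.64, 4.35-fold, adjusted p = 0.0432). Without replicate 4 of cDC2 that change was 1.34 (adjusted p = 0.31), and the call was lost in 5 of 23 fits without 1 library. Stat4 (1.32 ± 0.58), Socs1 (1.25 ± 0.55), Socs3 (1.06 ± 0.64) and Stat5a (−0.60 ± 0.44) were apart without passing.

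**Figure D5:**
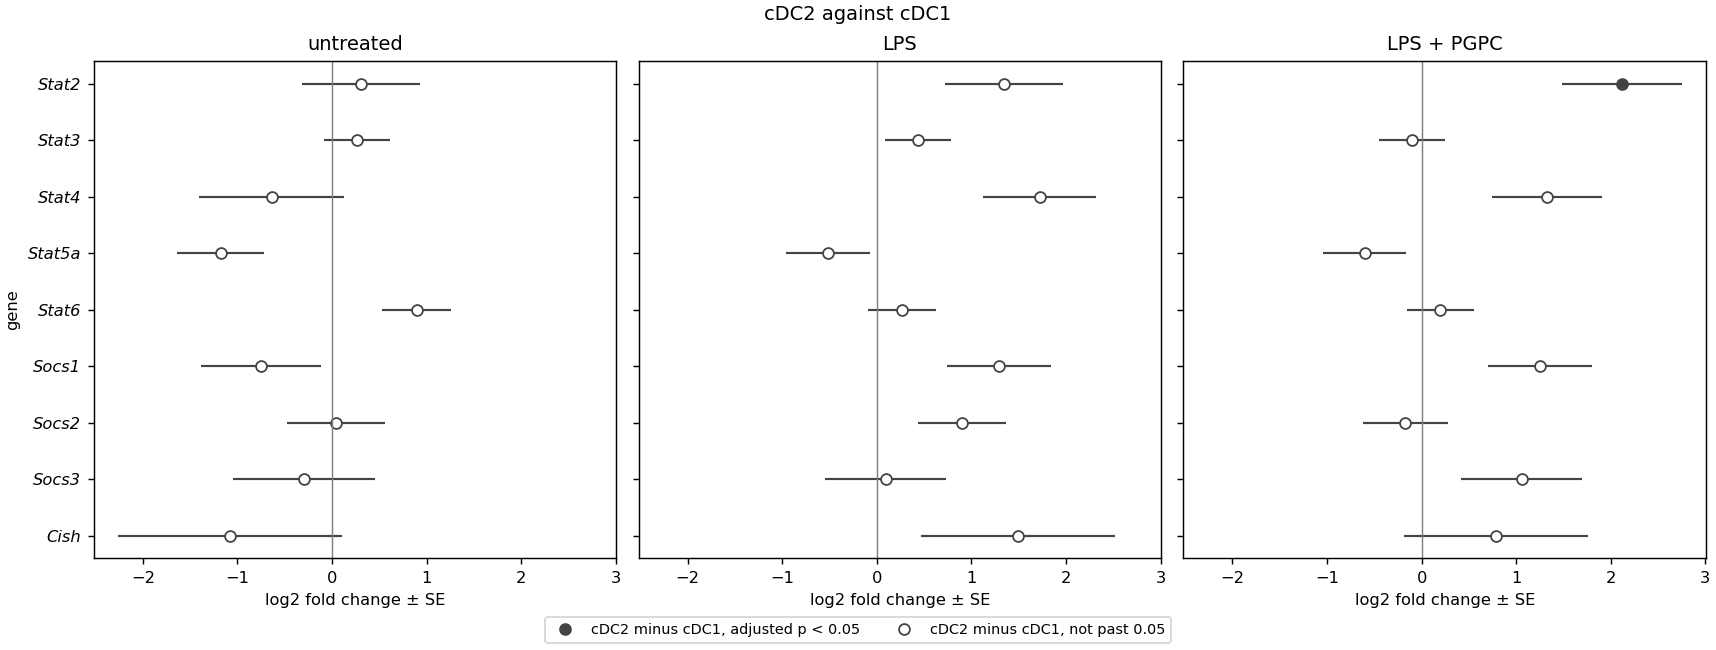
Log2 fold change ± SE of cDC2 against cDC1 for the 9 genes in untreated, LPS, and LPS + PGPC libraries, filled where the adjusted p is under 0.05. Stat2 with LPS and PGPC, at 2.12, is the single filled point, and Stat5a lies below 0 in all 3 panels.

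The LPS response itself was tested for a difference between subsets, and 0 of 9 genes passed, where 1.33% of all genes did (0.995% higher, 0.337% lower). At an unadjusted p under 0.05 there were 2, Stat4 (2.36 ± 0.97, cDC2 minus cDC1, adjusted p = 0.271) and Socs1 (2.04 ± 0.84, adjusted p = 0.273). DESeq2 called none of the 9, with 420 genes called in all. The larger log2 changes of cDC2 given above are therefore not shown to differ from those of cDC1. Among target genes the 13 STAT2-linked genes held 8 higher in untreated cDC2, 7 with LPS and 7 with both agents, and none lower. Their untreated sums overlapped between subsets, at 217, 1020 and 149.7 CPM in cDC2 and 94.1, 108 and 150.1 in cDC1. With LPS, Cmpk2 of that list held 81.6 ± 25.0 CPM in cDC1 and 1965 ± 505 in cDC2 (4.59 ± 0.79, adjusted p = 0.000501). Bcl2l1 gained less from LPS in cDC2, with a difference of −3.35 ± 0.58 (adjusted p = 0.00527). Monocyte or macrophage markers, none at 0, summed to 5721 to 7210 CPM in untreated cDC2 against 1545 to 4251 in untreated cDC1. Pan dendritic cell markers summed to 1979 to 2385 CPM in untreated cDC2 against 3097 to 3741 in untreated cDC1. Plasmacytoid markers summed to 22.5 to 71.5 CPM in untreated cDC2 against 236 to 431 in untreated cDC1. The part of these markers in the subset results was not tested.

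Across the 8 groups the order of the means differed by gene. Socs1 ran from 2.98 ± 2.40 CPM in cDC1 with PGPC to 264 ± 60.0 in cDC2 with LPS, with cDC2 given both agents (120.4 ± 11.3) and cDC1 given LPS (108 ± 22.2) next to each other within their spread. Socs3 was highest in cDC2 with LPS (142 ± 19.7) and cDC1 with LPS (133 ± 27.6), which overlapped, then in cDC2 and cDC1 with both agents (80.5 ± 9.29 and 38.7 ± 8.02), which did not. Socs2 was highest with both agents, in cDC1 (88.5 ± 37.6) and cDC2 (78.7 ± 28.4), which overlapped. Stat2 was highest in cDC2 with LPS (924 ± 731) and with both agents (801 ± 582), within their spread. Stat6 ran from 156 ± 47.0 CPM in cDC1 with PGPC to 391 ± 101 in cDC2 with both agents, the smallest ratio of highest to lowest group mean among the 9.

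Over the 8 group means of log2 CPM, Socs1 and Socs3 followed each other most closely among the members (Pearson r = 0.973), as did Stat2 and Socs1 (r = 0.973), and Stat6 followed the other 8 least (r = 0.298 to 0.631). These are descriptions over 8 points that share libraries and the LPS contrast. Among 10274 genes, those most like a member by the same measure were Aoah (r = 0.99) and Acp5 (0.986) for Stat2, Cxcl2 (0.996) and Ncoa2 (0.988) for Stat3, Sp100 (0.988) and Ms4a6b (0.979) for Stat4, and Cox17 (0.974) and Umad1 (0.969) for Stat5a. Tgoln1 (0.974) and Sugp2 (0.947) were most like Stat6. Il4ra, the interleukin-4 receptor chain, was among the most like Socs1 (0.987). Setd5 (0.989) and Zc3hav1 (0.987) were most like Socs2, St7 (0.981) was among the most like Socs3, and Gtpbp2 (0.987) and Irf2 (0.98) were most like Cish. Cxcl2 encodes a neutrophil chemokine, Sp100 a nuclear body protein and Zc3hav1 an antiviral RNA-binding protein.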

How the data were processed

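RNA from about 2000 cells' worth per reaction was made into cDNA by a modified Smart-Seq2 protocol and into Nextera XT libraries, sequenced paired-end, per the labels' protocols. The values are expected counts per gene that the authors deposited, made with RSEM on GRCm38 after bcl2fastq 2.2, per the submitters' processing notes; aligner and annotation: not given in the sources used here. They were rounded to whole counts (21% of nonzero values were not whole within 0.005). Libraries with alum (12) and cDC2 PGPC replicate 6 (3799 counts) were left out. R 4.3.3 and edgeR 4.0.16 gave TMM factors, filterByExpr (minimum count 10, minimum total 15), robust glmQLFit over 8 groups and glmQLFTest for 13 comparisons, with Benjamini-Hochberg adjustment over 12463 genes. SE is the log2 change over the square root of F. Figures used matplotlib 3.10.9. On simulated counts for LPS in cDC1, 158 of 200 genes changed by 3 on the log2 scale were recovered, with 6 false calls. The changed genes were drawn from those with higher counts, every gene had the same fixed dispersion, and no other group was changed. The recovery therefore does not carry over to sparse members such as Cish and Stat4. Alternatives were RLE factors, no filter, DESeq2 1.42.0, a replicate block, all 36 libraries, leaving out each library and, added after seeing the data, leaving out the ribosomal RNA locus. The members, lists and tests were chosen with earlier results of these data known. Named were all 9 members, up to 2 genes with the smallest adjusted p of each pathway list with a call, and the 2 genes most like each member, of which some are not reported here. Jak1, Jak3 and single markers were named after their values were seen.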

Additional observations from a re-analysis of the deposited data

Results flagged for a closer look

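The 7 values below came from libraries that the comparisons did not use and exceeded both 3 counts and the highest untreated value of the same subset, as CPM of the library total. In cDC1 with LPS and alum, replicate 2 held 470 for Stat3, 795 for Stat6 and 299 for Socs2. Replicate 1 of the same group held 1340 for Stat6 and 1050 for Socs3. Replicate 4 of cDC2 with alum held 4720 for Stat6, and replicate 5 of cDC2 with LPS and alum held 2160 for Socs2. The highest untreated values were 148 for Stat3, 197 for Stat6, 8.19 for Socs2 and 6.07 for Socs3 in cDC1, and 410 for Stat6 and 10.1 for Socs2 in cDC2. These libraries held at most 2610 genes with a count, and 96 of the 117 member values in the 13 unused libraries were 0. Their cause was not tested.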

How the results depend on the processing

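Of 3366 values of single members under an alternative, 3202 kept their direction and their side of the threshold, 84 lost and 20 gained a call, and 60 changed sign, none of these a value called in either fit. The causes below were not tested. With all 36 libraries in the fit, the calls among the 9 genes went from 6 to 0 for LPS in cDC1, 7 to 2 for LPS in cDC2, 8 to 1 and 6 to 1 for LPS added to PGPC in cDC1 and cDC2, 1 to 0 for PGPC in cDC1 and 1 to 0 for cDC2 against cDC1 with both agents. For LPS against untreated, the members that lost a call kept log2 changes close to those of the main fit. Genes called with all 36 went to 596 of 2235 (LPS in cDC1), 232 of 1062 (LPS in cDC2), 502 of 2043 and 102 of 827 (LPS added to PGPC in cDC1 and cDC2), 43 of 259 and 0 of 2 (PGPC), 8 of 241 and 2 of 48 (PGPC added to LPS), and 118 of 1265, 300 of 972 and 143 of 890 (cDC2 against cDC1 untreated, with LPS and with both). The subset differences went to 6 of 166 (LPS) and 0 of 1 (PGPC added to LPS).

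With no filter (24485 genes tested) and with DESeq2, members called were 2 and 2 for PGPC in cDC1, 2 and 1 for PGPC added to LPS in cDC1, and 1 and 1 for cDC2 against cDC1 with LPS, and DESeq2 called 1 untreated. Genes called were 632 and 642 for PGPC in cDC1, 33 and 14 for PGPC in cDC2, 585 and 722 for PGPC added to LPS in cDC1, 156 and 190 in cDC2, 425 and 420 for the LPS difference between subsets, and 97 and 52 for that of added PGPC. The share of calls that were higher for PGPC added to LPS went from 71.8% to 58.2% (DESeq2) in cDC1 and from 72.9% to 61.5% (RLE factors) and 56.3% (DESeq2) in cDC2. DESeq2 moved the median of all genes by −0.12 for LPS added to PGPC in cDC2.

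The replicate numbers were not taken to pair the samples, since correlations of deviations between same-numbered libraries were not all above 0.1: they ran from −0.0413 to 0.176 (median 0.0484) in cDC1 and −0.188 to 0.52 (median 0.00428) in cDC2, against −0.159 to 0.0908 (median −0.03) and −0.45 to 0.332 (median −0.00413) between libraries of different numbers. With a replicate block the calls were 0 members for PGPC in cDC1, 1 gene for PGPC in cDC2 and 4 members for LPS added to PGPC in cDC2 (Stat3 and Socs3 lost), and other counts stayed within 1.5 times. No paired analysis was possible because the subsets share no numbers for cDC2 against cDC1.

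Leaving out each library gave these ranges of members and genes called: 4 to 7 and 1436 to 2653 (LPS in cDC1), 6 to 8 and 657 to 1251 (LPS in cDC2), 0 to 1 and 119 to 351 (PGPC in cDC1), 0 and 1 to 3 (PGPC in cDC2), 0 to 2 and 60 to 397 (PGPC added to LPS in cDC1), 0 and 19 to 83 (the same in cDC2), 6 to 8 and 1366 to 2182 (LPS added to PGPC in cDC1), and 1 to 6 and 166 to 994 (the same in cDC2). For cDC2 against cDC1 they were 0 to 1 and 545 to 1589 untreated, 0 to 1 and 497 to 1395 with LPS, and 0 to 1 and 401 to 1089 with both. The subset differences gave 0 members, and 75 to 442 genes (LPS) and 1 to 46 (PGPC added to LPS). Estimated counts summed over a group were 8 to 347 for Cish and 2 to 305 for Stat4 without LPS.

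The sign changes fell on values that had not passed. Those outside the fits without 1 library were Stat2 for PGPC in cDC2 (−0.066 with no filter, −0.18 with a replicate block, −0.053 with all 36 libraries), Socs2 for PGPC in cDC2 (−0.052 with no filter), Cish for PGPC added to LPS in cDC2 (−0.0068 with RLE factors, −0.0045 with DESeq2) and Socs2 for untreated cDC2 against cDC1 (−0.021 with all 36). Without 1 library, the log2 changes that crossed 0 for PGPC in cDC2 ran from −1.02 to 0.87 (Stat2), −0.29 to 0.068 (Stat3), −7.14 to 0.22 (Stat4), −0.14 to 0.82 (Stat5a), −0.56 to 0.29 (Socs2) and −0.047 to 2.66 (Cish). For PGPC in cDC1 Cish ran from −0.15 to 3.12, and for LPS in cDC2 Stat6 from −0.55 to 0.073. For PGPC added to LPS in cDC2 they ran from −0.99 to 0.68 (Stat2), −0.68 to 0.28 (Stat4) and −0.74 to 1.14 (Cish). For untreated cDC2 against cDC1 they ran from −0.52 to 0.97 (Stat2), −0.013 to 0.58 (Stat3), −1.20 to 0.40 (Socs1), −0.14 to 0.25 (Socs2), −0.76 to 0.029 (Socs3) and −2.31 to 1.53 (Cish). With LPS Stat6 ran from −0.069 to 0.56, and with both agents Stat6 ran from −0.028 to 0.47, Socs2 from −0.39 to 0.26 and Cish from −0.031 to 1.40. The subset differences ran from −0.14 to 0.45 (Stat3) and −0.036 to 3.93 (Cish) for LPS, and from −0.011 to 1.65 (Stat2), −0.26 to 0.21 (Stat5a), −0.36 to 0.27 (Stat6), −0.44 to 0.16 (Socs1) and −1.53 to 0.36 (Cish) for added PGPC.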
